A study of Elaeis oleifera with 12 samples.

Results

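A pair of loci for cysteine-rich transmembrane (CYSTM) proteins were followed through the abscission zone (AZ) of the oil palm fruit. LOC105056320 is described in the files as cysteine-rich and transmembrane domain-containing protein B, and LOC105060667 as WIH2 of the same family, a description that 8 loci share. They are 2 of the 29040 loci in the files, and 2 of 9 loci whose description names this family. They were chosen with their values across these groups already known, and the study itself had listed LOC105060667 for its values in these libraries. Their levels and fold changes are therefore given as a description, with no test. Tests are given for the family loci outside this choice.

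RNA came from AZ tissue cut out of the fruit base of 2 American oil palms (Elaeis oleifera) of the same progeny. The NSd palm does not shed its fruit, and the Sd palm sheds its ripe fruit normally. Bunches were taken at the pre-ripe (PR) stage, when fruit is less orange and more firmly attached, and at the ripe stage, when fruit loosens easily. Each of the 4 groups held 3 libraries, numbered 1 to 3 for PR NSd, 4 to 6 for ripe NSd, 7 to 9 for PR Sd and 10 to 12 for ripe Sd. For every library about 50 dissected pieces, weighing about 3 g, were pooled, all from 1 bunch of 1 palm. The spread between libraries is thus a spread between samplings of the same bunch, and what belongs to the palm and what belongs to its shedding phenotype cannot be told apart. Within a palm the PR and ripe groups came from different bunches, so that stage and bunch cannot be told apart either. Changes with ripening below stand for the ripe bunch against the PR bunch of a palm. Their p-values measure only the spread between samplings of a bunch. The unit is RPKM, in which the reads at a locus are divided by its length in kilobases and by the library's total of aligned reads, which allows levels of different loci to be compared per length.

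CYSTM proteins are very short plant and fungal proteins that end in a cysteine-rich stretch thought to sit in the membrane. In Arabidopsis most members are found at the plasma membrane, and several respond to abiotic stress. Arabidopsis WIH1 and WIH2, the WINDHOSE proteins, act downstream of the transcription factor WUSCHEL in the ovule, where they promote the formation of the female spore mother cell. The function of the palm proteins is known only through such relatives.

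The libraries held 19090375 to 34004517 aligned reads. Those of PR NSd had Pearson's r across the tested loci of 0.896 to 0.941 with libraries of the other groups, where libraries within a group reached 0.965 to 0.9905. The r among the other groups was not computed, so these values alone do not set PR NSd apart. Reads on rRNA loci made up at least 12.2 to 22.4% of a PR NSd library, 4.70 to 5.51% of a PR Sd library, 2.72 to 6.87% of a ripe Sd library and 1.23 to 13.4% of a ripe NSd library. The tested loci as a whole had a median log2 fold change of 0.31 for ripe against PR in NSd and of -0.35 for PR NSd against PR Sd. It was 0.03 for ripe against PR in Sd, -0.06 for the ripe palms and -0.30 for the stage change in Sd minus that in NSd. Changes that involve PR NSd are read against these shifts.

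The transcript of CYSTM protein B (LOC105056320) was among the most abundant of the AZ samples. It ranked between 6 and 27 of the 29040 loci by RPKM in the 12 libraries, and 30319 to 90172 reads lay behind each value, or 0.124 to 0.420% of the aligned reads. In the Sd palm it stood at 1839, 2110 and 3069 RPKM in PR libraries 7, 8 and 9. In ripe Sd it stood at 3585, 3816 and 3714 RPKM in libraries 10, 11 and 12. All ripe Sd libraries were above all PR Sd libraries, although PR Sd library 9 was closer to ripe Sd than libraries 7 and 8 were. In the NSd palm the transcript took the opposite course. PR NSd libraries 1, 2 and 3 held 5646, 6216 and 5103 RPKM, the highest 3 values of the series. Ripe NSd libraries 4, 5 and 6 held 2402, 2522 and 2715 RPKM.

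Group means of LOC105056320 ran in the order PR NSd, ripe Sd, ripe NSd and PR Sd. PR NSd was at 5655 ± 556 RPKM (SD, n = 3), ripe Sd at 3705 ± 116, ripe NSd at 2547 ± 158 and PR Sd at 2339 ± 646. Ripe NSd and PR Sd overlapped, and no other neighbours in this order did. Samplings of the ripe bunches were close to each other, with coefficients of variation of 3.14% in Sd and 6.20% in NSd, while PR Sd had 27.6%.

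With the spread of the fit across all loci, LOC105056320 had a log2 fold change of 0.70 (SE 0.18) for ripe against PR in Sd and of -1.15 (SE 0.18) for the same stages in NSd. NSd was above Sd at the PR stage (log2 fold change 1.30, SE 0.18) and below it at the ripe stage (log2 fold change -0.54, SE 0.18). The difference between the palms at the ripe stage, 1.46-fold on this scale, was thus the smallest of the 4 and that at PR, 2.47-fold, the largest. The change in NSd and the difference at PR ran against the median shifts of all loci given above. After rescaling each library by its median ratio to the others, they came to -1.51 and 1.71.

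LOC105060667, described as WIH2, was expressed at a far lower level, with 69 to 837 reads behind each value, and showed wider swings. In PR Sd libraries 7, 8 and 9 it stood at 9.88, 11.8 and 16.9 RPKM. In ripe Sd libraries 10, 11 and 12 it stood at 40.1, 32.6 and 59.5 RPKM. The ripe libraries were all above the PR libraries of this palm. In the NSd palm it went from 21.6, 36.6 and 30.4 RPKM in PR libraries 1, 2 and 3 to 10.1, 7.996 and 5.68 RPKM in ripe libraries 4, 5 and 6. All ripe NSd libraries were below all PR NSd libraries and below all ripe Sd libraries.

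The order of the group means was ripe Sd, PR NSd, PR Sd and ripe NSd, at 44.1 ± 13.9, 29.5 ± 7.56, 12.8 ± 3.63 and 7.93 ± 2.23 RPKM (SD, n = 3). Ripe Sd overlapped PR NSd, and PR Sd overlapped ripe NSd, whereas the upper pair and the lower pair of groups were separated. The coefficients of variation were 25.6 to 31.5% in the 4 groups. LOC105060667 had a log2 fold change of 1.69 (SE 0.27) for ripe against PR in Sd, or 3.23-fold, and of -1.77 (SE 0.27) in NSd. Between the ripe palms its log2 fold change was -2.32 (SE 0.27), which is 5.003-fold on the log2(RPKM + 1) scale, and at PR it was 1.14 (SE 0.27) in the other direction.

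**Figure D1:**
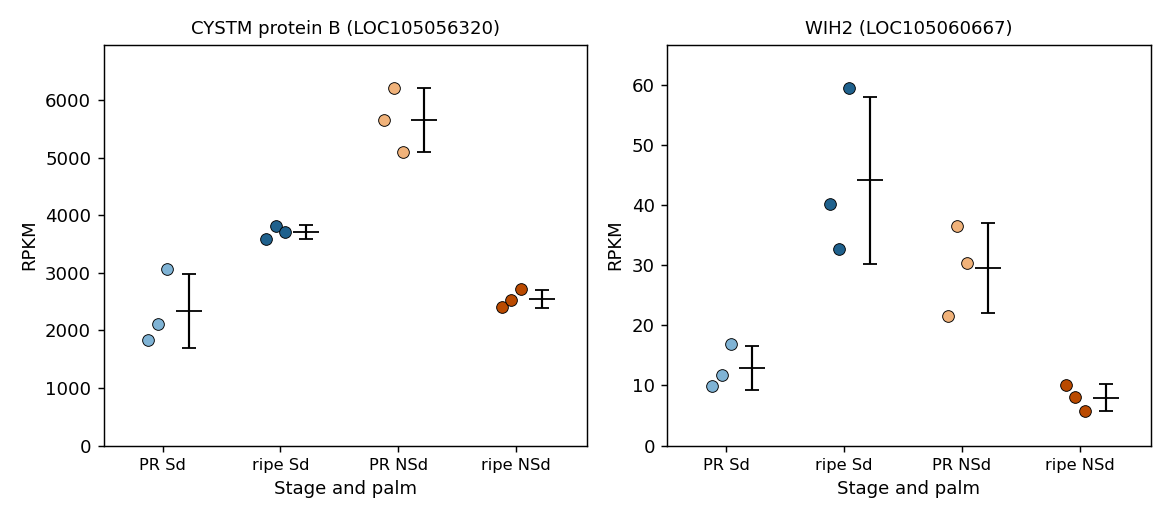
RPKM of CYSTM protein B (LOC105056320, left) and of LOC105060667, 1 of the 8 loci described as WIH2 (right), in each of 12 libraries, as points by stage and palm, with the group mean and SD (n = 3) as bars. Both were higher in every ripe Sd library than in any PR Sd library, and lower in every ripe NSd library than in any PR NSd library. Protein B peaked in PR NSd at 5103 to 6216 RPKM, and LOC105060667 reached its highest value, 59.5 RPKM, in ripe Sd.

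Both loci had the same crossed course, with ripe values above PR values in the palm that sheds and under them in the palm that does not. The libraries of the compared groups did not overlap for either locus in any of the 4 comparisons. Over all 20495 loci tested, 16.9% had non-overlapping higher libraries from PR to ripe in Sd, 8.58% non-overlapping lower libraries from PR to ripe in NSd, 20.0% lower in ripe NSd than in ripe Sd and 8.85% higher in PR NSd than in PR Sd. Since the loci were chosen on these groups, nothing is read from their share. The stage change in Sd minus that in NSd was 1.85 (SE 0.25) on the log2 scale for LOC105056320 and 3.46 (SE 0.39) for LOC105060667. The loci differed in where they peaked. Protein B was higher in PR NSd than in ripe Sd, and LOC105060667 had the higher mean in ripe Sd. The ratio of their RPKM was 62.4 to 117 in ripe Sd, 179 to 186 in PR Sd, 168 to 262 in PR NSd and 237 to 478 in ripe NSd. The ripe palms did not overlap in this ratio.

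Within the family, protein B dominated the pool of transcripts. It made up 72.0 to 85.1% of the summed RPKM of the 9 loci in every library. The sum itself was 6697 ± 582 RPKM in PR NSd, 4674 ± 119 in ripe Sd, 3358 ± 159 in ripe NSd and 3112 ± 716 in PR Sd (SD, n = 3). LOC105060667 was a minor member, at 0.162 to 1.28% of that sum. Among the 8 loci described as WIH2 it held 4.59 ± 1.64% of the summed RPKM in ripe Sd but 0.979 ± 0.284% in ripe NSd, with intermediate shares of 2.81 ± 0.586% at PR in NSd and 1.64 ± 0.310% at PR in Sd.

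The other 7 loci of the family are all described as WIH2 and were not picked for their course. At 6 of them at least 1 library reached 1 RPKM, so that they entered the test, limma on log2(RPKM + 1) with p-values adjusted by Benjamini-Hochberg over all loci. The locus left out, LOC105051059, stayed at 0 to 0.341 RPKM. To be called, a locus needed an adjusted p below 0.01 together with a change of more than 1 on the log2 scale in either direction. With ripening in Sd 1 of the 6 rose (0.659% of all tested loci did), and with ripening in NSd 1 fell (3.07%). At PR 1 was higher in NSd than in Sd (3.36%), and 1 had a higher stage change in Sd than in NSd (4.07%). None was called between the ripe palms by limma (2.44% of all loci were, in either direction), where at an unadjusted p under 0.05 1 was higher and 2 lower in NSd, against 10.3% and 18.0% of all loci. The median log2 fold change of the 6 was 0.05 for the stages in Sd, -0.05 between the ripe palms, 0.22 for the stages in NSd, 0.20 between the palms at PR and 0.19 for the difference of the stage changes.

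The locus called was LOC105049213 each time. It stood at 52.4, 66.7 and 82.7 RPKM in PR Sd libraries 7, 8 and 9 and at 132, 171 and 172 RPKM in ripe Sd libraries 10, 11 and 12. In NSd it went from 180, 258 and 171 RPKM in PR libraries 1, 2 and 3 to 86.2, 101 and 100.4 RPKM in ripe libraries 4, 5 and 6. Ripe libraries were above PR libraries in the Sd palm and below them in the NSd palm, with no overlap in either. By limma it rose with ripening in Sd (log2 fold change 1.23, SE 0.19, adjusted p = 0.00525) and fell in NSd (log2 fold change -1.05, SE 0.19, adjusted p = 0.00114). It was higher in NSd than in Sd at PR (log2 fold change 1.58, SE 0.19, adjusted p = 6.32e-05), and its stage changes differed between the palms (log2 difference 2.29, SE 0.27, adjusted p = 0.000155). Between the ripe palms its log2 fold change of -0.71 did not pass (adjusted p = 0.0358). The rise in Sd was not called without library 5, 7, 8, 11 or 12, with no filter on low loci or when the 2 Sd groups alone were fitted (adjusted p = 0.0103 to 0.0310), and the fall in NSd not without library 2 or 4 (log2 fold changes -0.87 and -0.98). The difference of the stage changes was called under every alternative run (adjusted p = 9.59e-05 to 0.000795).

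LOC105057960 was the most abundant of the WIH2 loci, at 444 to 748 RPKM, and its movements were small. Its libraries held 444 to 532 RPKM in PR Sd, 540 to 579 in ripe Sd, 588 to 748 in PR NSd and 473 to 481 in ripe NSd. The log2 fold changes were 0.25 (adjusted p = 0.226, limma) with ripening in Sd and -0.48 (adjusted p = 0.00587) in NSd, and the difference of the stage changes was 0.73 (SE 0.16, adjusted p = 0.00561). None of these reached the fold limit. With RPKM rescaled by the median ratio the difference came to 1.07 and was called.

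LOC105060665 did not share that course. It stood at 136 to 146 RPKM in PR Sd, 85.5 to 173 in ripe Sd and 135 to 168 in ripe NSd. In PR NSd it stood at 139, 66.6 and 39.9 RPKM in libraries 1, 2 and 3, so that library 1 lay within the range of the other groups and libraries 2 and 3 below it. Its log2 fold change from PR to ripe in NSd was 1.07 (SE 0.36, adjusted p = 0.0286, limma), not called, and without library 1 it was 1.55 (adjusted p = 0.00141). The same was seen between the palms at PR, where a log2 fold change of -0.97 (adjusted p = 0.0399) came to -1.44 without library 1 (adjusted p = 0.00172), and in the difference of the stage changes, which went from -1.22 (adjusted p = 0.083) to -1.69 (adjusted p = 0.00536). Library 1 was the value furthest from the rest of PR NSd, and its removal narrows the spread. No other run at the main limits called this locus, so nothing is read from it.

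**Figure D2:**
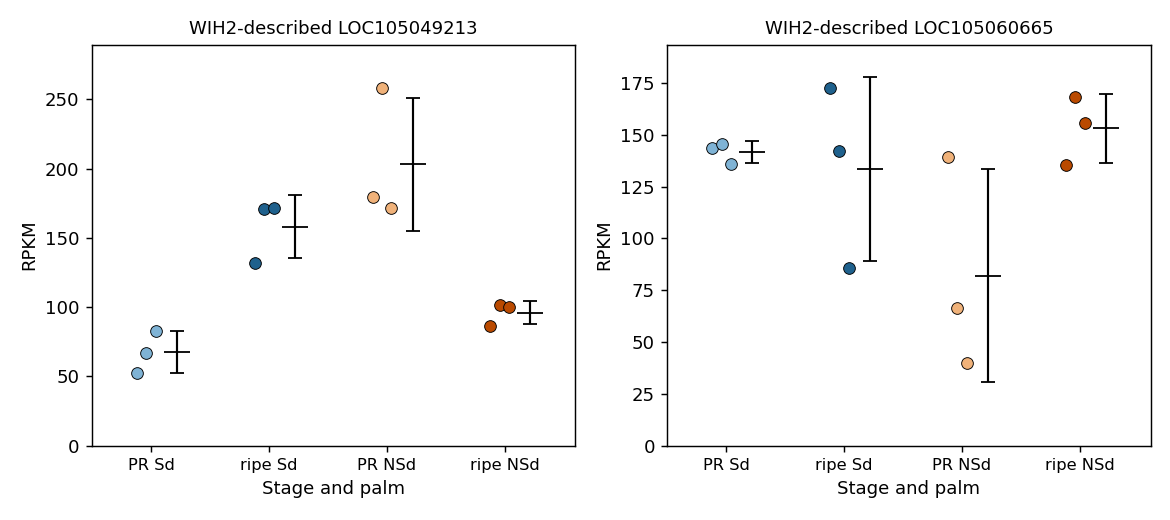
RPKM of LOC105049213 (left) and LOC105060665 (right), both described as WIH2, in each library by stage and palm, with the group mean and SD (n = 3) as bars. LOC105049213 rises with ripening in Sd and falls in NSd, and LOC105060665 is lowest in PR NSd libraries 2 and 3, at 66.6 and 39.9 RPKM.

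Of the remaining loci, LOC105061400 kept to 45.5 to 77.3 RPKM and LOC105034686 to 3.98 to 13.8 RPKM, and neither was called. LOC105059860 was close to absent outside ripe Sd. It held 0 to 0.650 RPKM, or at most 8 reads, in the other 9 libraries and 1.17, 6.31 and 4.35 RPKM in ripe Sd libraries 10, 11 and 12. Its log2 fold changes of 1.81 with ripening in Sd (adjusted p = 0.0136, limma) and -1.64 between the ripe palms (adjusted p = 0.0141) were not called. Without ripe Sd library 10 they were called, at 2.32 (adjusted p = 0.00107) and -2.15 (adjusted p = 0.00117), as was the difference of the stage changes, at 2.05 (adjusted p = 0.00121). Library 10 was the lowest of ripe Sd, and its removal narrows the spread. No other run at these limits called the locus, so nothing is read from it. These loci carry the same description, and reads of near-identical copies may be divided between them by the alignment, which was not examined.

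**Figure D3:**
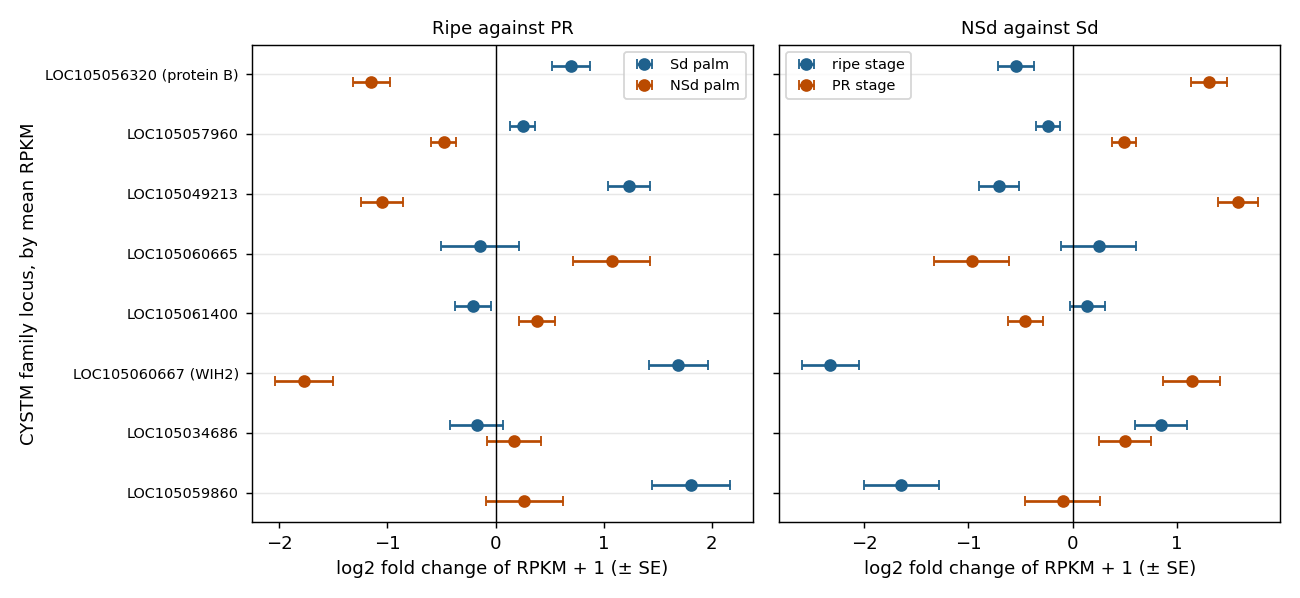
Log2 fold changes of RPKM + 1 with the SE of the limma fit for the 8 CYSTM loci that entered the fit, in order of mean RPKM. The left panel gives ripe against PR in the Sd and NSd palms, and the right panel NSd against Sd at the ripe and PR stages. LOC105056320, LOC105057960, LOC105049213 and LOC105060667 have values of opposite sign in the 2 palms, positive in Sd and negative in NSd. LOC105060665, LOC105061400 and LOC105034686 have the reverse signs, and these 3 were called in no comparison of the fit on all 12 libraries. In NSd the values of LOC105061400 (0.39, SE 0.17) and LOC105034686 (0.17, SE 0.25) lie within 1 SE of the median shift of all loci, 0.31. Their signs are therefore not read as an opposite course.

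Loci with courses most like those of the members were sought by Pearson's r of log2(RPKM + 1) over the 12 libraries, among 12895 other loci with a mean of at least 5 RPKM. These r are descriptions, since libraries of a group share a bunch. The ranks are also unstable. Of the 5 loci named as most like each member, 1 stayed among the 5 by Spearman's rho and 1 without the PR NSd libraries. For LOC105056320 the first was ubiquinol oxidase 2 (LOC105042507, r of 0.985), the alternative oxidase that takes electrons from ubiquinol in mitochondria. It averaged 74.8 RPKM in PR NSd, 46.1 in ripe Sd, 31.9 in ripe NSd and 27.8 in PR Sd. Next came long chain base biosynthesis protein 2a (LOC105034240, r of 0.980), a subunit of the enzyme that begins sphingolipid synthesis, and the uncharacterized LOC105057612 and LOC105056255 (0.976 and 0.975). Peroxisomal membrane protein 13 (LOC105051319, 0.973) was the fifth. The least like were histone H1 (LOC105059363, r of -0.975), a linker histone, and the uncharacterized LOC105057661 (-0.974). Histone H1 averaged 78.9 RPKM in PR NSd and 346 in PR Sd, and 252 in ripe NSd and 132 in ripe Sd, the mirror of protein B.

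For LOC105060667 the nearest were mitogen-activated protein kinase 2 (LOC105043312, r of 0.972), a signaling kinase, and cyclin-dependent kinase D-1 (LOC105060439, 0.965), of the kinases that activate other cyclin-dependent kinases. They were followed by an endoplasmic reticulum calcium pump, calcium-transporting ATPase 4 (LOC105044515, 0.963), the disulfide reductant thioredoxin H4-1 (LOC105057221, 0.962) and the plastid pyruvate kinase isozyme G (LOC105043843, 0.960). The kinase LOC105043312 averaged 82.4 RPKM in ripe Sd, 74.7 in PR NSd, 47.2 in PR Sd and 32.0 in ripe NSd, the same order as LOC105060667 over a narrower range. Tetraspanin-2 (LOC105047960, -0.941) and the uncharacterized LOC105058613 (-0.918) were the least like. Between the 2 members r was 0.700. It is not set against the r of the loci above, which were picked for the highest values. With LOC105056320, LOC105049213 had r of 0.941 and LOC105057960 of 0.910, against 0.731 and 0.711 with LOC105060667. LOC105060665 had negative r with both, -0.601 and -0.505.

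Other loci that bear on what is known of the family were counted by description. Of 15 loci described as WUSCHEL-related or SPOROCYTELESS, a list wider than the regulators of the ovule, 2 reached 1 RPKM. Both were called by limma for a stage change in Sd below that in NSd, as were 9.19% of all loci. Both are described as WUSCHEL-related homeobox 8, a homeodomain factor that in Arabidopsis acts in the early embryo. They are not WUSCHEL itself, so their counts say nothing of its link to the WIH proteins. LOC105055233 averaged 23.2 RPKM in PR NSd, 50.8 in ripe Sd, 70.4 in ripe NSd and 74.1 in PR Sd (limma difference of the log2 stage changes -2.09, SE 0.23, adjusted p = 9.26e-05). LOC105058860 averaged 27.1, 56.2, 49.9 and 62.1 RPKM in the same groups (-1.03, SE 0.23, adjusted p = 0.00556). With libraries rescaled by the median ratio LOC105055233 was still called (-1.76, adjusted p = 0.000189), and LOC105058860 was not (-0.70, adjusted p = 0.0118). Of 22 tested loci of salicylic acid and systemic resistance, 1 was called lower in ripe NSd than in ripe Sd (1.63% of all loci). This was isochorismate synthase 2 (LOC105053482), an enzyme of salicylic acid synthesis, at 3.17 ± 0.953 against 10.5 ± 0.733 RPKM (n = 3; limma log2 fold change -1.49, SE 0.16, adjusted p = 0.000382). Of 55 tested heavy metal binding loci 1 was called lower in ripe NSd than in ripe Sd (1.63% of all loci), so nothing is read from this count. It was a locus of metallothionein-like protein type 2 (LOC105044410), a small metal-binding protein, at 0.0190 ± 0.0329 against 1.54 ± 0.189 RPKM (limma log2 fold change -1.32, SE 0.17, adjusted p = 0.00111). This locus is near the floor and does not stand for the list, whose 84 loci summed to 19303 to 23786 RPKM in ripe NSd and 21444 to 25299 in ripe Sd. Isochorismate synthase 2 and this metallothionein-like locus were also lower in NSd at PR. Isochorismate synthase 2 averaged 1.06 RPKM in PR NSd against 7.52 in PR Sd (limma log2 fold change -2.05, adjusted p = 2.55e-06). The metallothionein-like locus averaged 0.250 against 2.38 RPKM (limma log2 fold change -1.43, adjusted p = 4.62e-05). For the stage change in Sd minus that in NSd 3 heavy metal binding loci were called higher and 14 lower, against 4.07% and 9.19% of all loci. Neither of 2 other small membrane protein loci was called in any comparison by limma, and at an unadjusted p under 0.05 1 was higher with ripening in Sd (12.5% of all loci were), 1 higher with ripening in NSd (45.6%) and 1 lower in PR NSd than in PR Sd (49.0%).

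Marker lists for tissues that a fruit base can hold also moved with the groups. Their sums are of RPKM without rescaling. By the median ratio the scaling factors were 0.726 to 0.878 in PR NSd libraries and 0.969 to 1.14 in the others. Rescaling would thus raise the PR NSd sums against those of the other groups, by an amount that was not computed. The summed level of 26 mesocarp oil synthesis loci was 1105 to 1344 RPKM in PR NSd, 1427 to 2102 in ripe NSd, 1273 to 1448 in PR Sd and 623 to 1232 in ripe Sd, and 8 of 16 tested were called by limma for a lower stage change in Sd than in NSd. Over all loci 9.19% were called lower and 4.07% higher for this difference, the background for each tissue list. With libraries rescaled by the median ratio the shares were 4.97% lower and 6.18% higher, and the mesocarp count was 5 of 17. That of 65 lignin loci, of pedicel and vascular tissue, was 564 to 683 RPKM in PR NSd and 851 to 1175 in the other groups (3 lower and 1 higher of 32 tested, but 1 lower and 4 higher after rescaling). The 58 polygalacturonase loci, enzymes of cell separation, summed to 226 to 330.5 RPKM in PR Sd and 378 to 704 in the other groups (4 lower and 2 higher of 25). The 22 green tissue loci summed to 30.4 to 44.3 RPKM in PR NSd and 71.1 to 189 elsewhere (3 lower of 14), and the 19 seed loci to 137 to 270 RPKM in NSd and 345 to 517 in Sd (1 higher and 1 lower of 5). Loci at 0 in every library numbered 1 of the mesocarp, 8 of the lignin, 12 of the polygalacturonase, 0 of the green tissue and 4 of the seed list. In pooled tissue fewer cells of a type and less RNA per cell cannot be told apart, and the part of tissue make-up in the levels of the CYSTM loci was not tested.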

How the data were processed

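The authors trimmed single reads with bcl2fastq 2.20.0.422, aligned them by BWA-MEM with default parameters to the E. guineensis transcriptome, counted them with SAMtools, merged the transcripts of a locus and computed the deposited RPKM values, 1 file per library. The alignment thus used transcripts of the African species for reads of the American one. Each file holds 29040 loci and 1 blank row, which was left out. The smallest steps of RPKM at low loci gave the aligned reads of each library, 277584786 in all. At each of the 9 CYSTM loci all values are then whole reads under a single transcript length (tolerance 0.001 reads), which gave the reads printed. rRNA shares are lower bounds, from 104 of 132 loci. limma 3.58.1 under R 4.3.3 was run on log2(RPKM + 1) with a trend of variance on mean, 12 libraries and 1 mean per group, for the 20495 loci that reached 1 RPKM in any library. The pseudocount understates changes of low loci. The fit was also run on simulated data with independent noise, changes in ripe Sd alone and only at well expressed loci. That simulation had no shift between libraries and no shared bunch, so it does not bear on comparisons with PR NSd or on low loci. Family, context and tissue lists were matched by description. Named loci are the members, family loci called or most abundant, up to 3 called loci of each context list by p between the ripe palms, and the 5 loci most and 2 least like each member. LOC105060665, LOC105059860, LOC105061400, LOC105034686, LOC105051059, LOC105055233 and LOC105058860 were named after their values were seen. The members and lists were chosen with earlier results of these data known. Alternatives were a pseudocount of 0.1, no filter, only the compared groups, 2 rescalings, no trend, robust moderation, an adjusted p under 0.05, rank correlation and leaving out libraries. Other software was pandas 2.3.3, numpy 2.4.6 and matplotlib 3.10.9 in Python 3.11.15. No promoter or protein sequence was used here.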

Additional observations from a re-analysis of the deposited data

Results flagged for a closer look

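LOC105049213 had a stage change that differed between the palms by the interaction term of limma (difference of the log2 stage changes 2.29, adjusted p = 0.000155). LOC105057960 had an adjusted p of 0.00561 by the same term, but its difference of 0.73 was under the fold limit, so that it was not called. For the chosen loci LOC105056320 (1.85) and LOC105060667 (3.46) every ripe library was above every PR library in Sd and below it in NSd, and the difference was not tested.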

How the results depend on the processing

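The 10 fold changes of the members kept their sign in all 154 values recomputed, and 148 moved by less than the SD between replicates. Part of this was fixed in advance. Leaving out a library of a group that is not compared returns the same fold change. Because the compared groups did not overlap, leaving out a single library could not reverse a sign. These counts are therefore not a measure of robustness. With RPKM rescaled by the median ratio, LOC105056320 came to 1.71 for PR NSd against PR Sd, -1.51 from PR to ripe in NSd and 2.19 for the difference of the stage changes, and LOC105060667 to 1.53 for PR NSd against PR Sd. With rRNA loci out of the totals, LOC105056320 came to -1.29 from PR to ripe in NSd. Leaving out each library in turn gave 1.69 to 2.06 for its difference of the stage changes.

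The number of other family loci called, 1 in the main fit in each comparison but the one between the ripe palms (0), ranged without single libraries from 0 to 2 for ripe against PR in Sd, 0 to 2 in NSd, 1 to 2 for PR NSd against PR Sd, 0 to 1 between the ripe palms and 1 to 2 for the difference of the stage changes. It was 0 for ripe against PR in Sd with no filter and with only the compared groups fitted, and 2 for the difference of the stage changes with rescaled RPKM. At an adjusted p under 0.05 with no fold limit it was 2 for ripe against PR in Sd, 3 in NSd, 4 between the palms at PR, 3 at the ripe stage and 3 for the difference of the stage changes. The share of all loci that passed this looser limit was not computed, so nothing is read from these counts. At an unadjusted p under 0.05 by limma, 49.0% of all loci were lower in PR NSd than in PR Sd. With ripening in NSd 45.6% were higher. Of the 5 loci most like each member, 1 stayed among the 5 by Spearman's rho and 1 without the PR NSd libraries. No paired analysis was possible because the groups share no replicate numbers. LOC105059860 rests on at most 79 reads a library. Rescaling was applied to the context and tissue lists after seeing the data. With rRNA loci out of the totals LOC105058860 was not called (-0.91, adjusted p = 0.00434, limma), and LOC105055233 was (-1.97). In that setting 11 of 57 heavy metal binding loci were called lower, against 7.46% of all loci. By the median ratio 9 of 55 were, against 4.97% of all loci. Over all loci the calls went from 835 higher and 1884 lower in the main fit to 1265 and 1017 by the median ratio.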
